A study of Rattus norvegicus with 18 samples.

Results

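The miR-181 family is a set of microRNAs (miRNAs) made from 6 precursor genes, named a, b, c and d, and read here in cervical dorsal root ganglia (DRG) of adult Lister hooded rats. Its members were chosen by name: every entry of the small RNA count table named as a, b, c or d of rno-miR-181, whatever its copy or arm suffix, was taken, and no measured value set the membership. This gave 10 of the 753 miRNAs listed, of which 7 had been listed beforehand with the rule and 6 passed the detection filter of more than 10 counts in at least 6 libraries. The other 4 were 1 miRNA without any count and 3 below the filter. The family was taken up with earlier results of these data known, so the p-values given for it are descriptions and not independent support.

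Small RNAs were sequenced in 3 groups of 6 rats, with 1 library per rat from the ganglia C6 to C8 of 1 side, combined within the rat. Naive rats had no operation and no vector. Rats of the bPYX groups had a bilateral pyramidotomy, in which both corticospinal tracts are cut in the medulla, and an injection of an adeno-associated viral vector (AAV1, CMV promoter) into forelimb flexor muscles. The vector encoded GFP, a fluorescent control protein, in the bPYX+GFP rats, and human NT3 (neurotrophin-3) in the bPYX+NT3 rats. Their ganglia were taken 10 weeks after injury, and a difference between naive and bPYX rats cannot be told apart into injury, surgery and vector.

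A miRNA guides the Argonaute protein to messenger RNAs, mainly through its seed, the bases 2 to 8 from the 5′ end, and the targeted messages are repressed. Each hairpin precursor gives 2 arms, called 5p and 3p, of which usually 1 is kept as the guide and the other, the passenger, is mostly degraded. In vertebrates the miR-181 genes lie in clusters that pair a with b or c with d, and the family is best known from lymphocyte development and T cell receptor signalling and from neurons and glia of the brain.

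The 5p arms are shown because all 4 carry the same seed, in capitals, and differ only in the bases after it (5′ to 3′, from RefSeq for assembly GRCr8, while the counts were made on Rnor_5.0).
rno-miR-181a-5p: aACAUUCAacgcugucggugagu
rno-miR-181b-5p: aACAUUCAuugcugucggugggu
rno-miR-181c-5p: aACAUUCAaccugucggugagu
rno-miR-181d-5p: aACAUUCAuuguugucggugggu

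With positions counted from 1 at the 5′ end, miR-181d-5p differed from miR-181b-5p by the single change C12U. It differed from miR-181a-5p by A9U, C10U, C12U and A21G, and miR-181b-5p differed from miR-181a-5p by A9U, C10U and A21G. miR-181c-5p was shorter than miR-181a-5p by 1 base, the G at position 11. Among all rat mature miRNAs of the reference table, no others held the seed ACAUUCA.

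The 3p arms had more than 1 seed. They are shown, again with bases 2 to 8 in capitals, because the seed of miR-181c-3p returns in miR-181a-1-3p while the other 3p arms have a seed each of their own.
rno-miR-181a-1-3p: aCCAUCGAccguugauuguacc
rno-miR-181c-3p: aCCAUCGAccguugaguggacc
rno-miR-181a-2-3p: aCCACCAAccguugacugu
rno-miR-181b-1-3p: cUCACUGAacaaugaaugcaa
rno-miR-181d-3p: cCACCGGGggaugaauguca

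miR-181a-1-3p and miR-181c-3p differed by U16G and U19G, outside the seed. The family member rno-miR-181b-2-3p is named only. The precursors of the c and d members are shown with both arms in capitals, since these hairpins gave the most abundant members. Both genes lie on the plus strand of chromosome 19 in GRCr8.
Mir181c: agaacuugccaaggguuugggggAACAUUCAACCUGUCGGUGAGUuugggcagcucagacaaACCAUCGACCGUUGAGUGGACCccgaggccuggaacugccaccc
Mir181d: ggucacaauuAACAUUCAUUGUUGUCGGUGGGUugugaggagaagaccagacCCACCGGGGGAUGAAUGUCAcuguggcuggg

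miRNA counts were 4.70 ± 0.66 M per library (SD, n = 18, M for mega), from 3.88 to 6.92 M. A further 31.4 ± 1.88% of all reads had too low an alignment quality to be counted, and others were given to no miRNA. In naive replicate 1, for example, 4374198 of 12652809 reads were miRNA counts and 3.99 M had low alignment quality. The tissue label was checked against marker miRNAs: the summed level of the sensory neuron list (miR-183-5p, miR-96-5p and miR-182) was 23640 to 33099 CPM, counts per M of miRNA counts after TMM scaling. In this list miR-183-5p was listed at 0 in all 18 libraries, as were miR-338-3p of the Schwann and satellite glia list, miR-126a-5p of the endothelial list and miR-1-3p and miR-133a-3p of the muscle list, so an entry at 0 in this table is not evidence of an absent miRNA. The summed muscle list was 71.5 to 335 CPM. Naive replicate 1 was kept although the original work set this rat aside, and results that change without it are named.

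The family was a small part of the counted DRG miRNAs, and 1 cluster, c with d, held most of its counts. Reads of miR-181a-5p and miR-181b-5p fit 2 genes each and may have been left out of the counts, so the shares and the order of levels are those of counted reads. All members together took 0.0495 ± 0.00599% of miRNA counts (SD, n = 18), with group means of 0.0512% (naive), 0.0453% (bPYX+GFP) and 0.0519% (bPYX+NT3). Of the family's counts, miR-181d-5p took 62.5% and miR-181c-5p 23.8% on average. Because mature miRNAs are of nearly equal length, here 19 to 23 bases, levels are compared as CPM without a length term.

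The order of the levels began with miR-181d-5p at 307 ± 26.9 CPM (SD, n = 18), rank 112 of the 373 miRNAs tested, and miR-181c-5p at 119 ± 37.4 CPM, rank 153. Their ranges did not overlap, with the lowest miR-181d-5p library at 263 CPM and the highest miR-181c-5p library at 216 CPM. Next came miR-181c-3p, the other arm of the c hairpin, at 26.5 ± 3.83 CPM, and miR-181a-2-3p at 19.1 ± 2.38 CPM. The ranges of these members overlapped at 21.6 to 23.0 CPM, although miR-181c-3p had the higher count within every library. miR-181b-5p had 16.9 ± 2.88 CPM, and its range of 11.5 to 22.8 CPM overlapped that of miR-181a-2-3p, 15.6 to 23.0 CPM, so these neighbours did not differ beyond their spread. The last member tested, miR-181b-1-3p, had 3.32 ± 1.36 CPM and a highest value of 6.32 CPM, below every miR-181b-5p library.

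The members below the filter had few counts in any group. miR-181a-5p, the member best studied in lymphocytes, had 1 to 10 counts per library and a mean of 5.11. miR-181b-2-3p had 0 to 3 counts and miR-181d-3p, the opposite arm of the most abundant member, 0 to 2 counts. miR-181a-1-3p had no count in any of the 18 libraries, and a limit of 3 counts corresponds to 0.476 to 0.763 CPM by library, for counting error only.

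**Figure D1:**
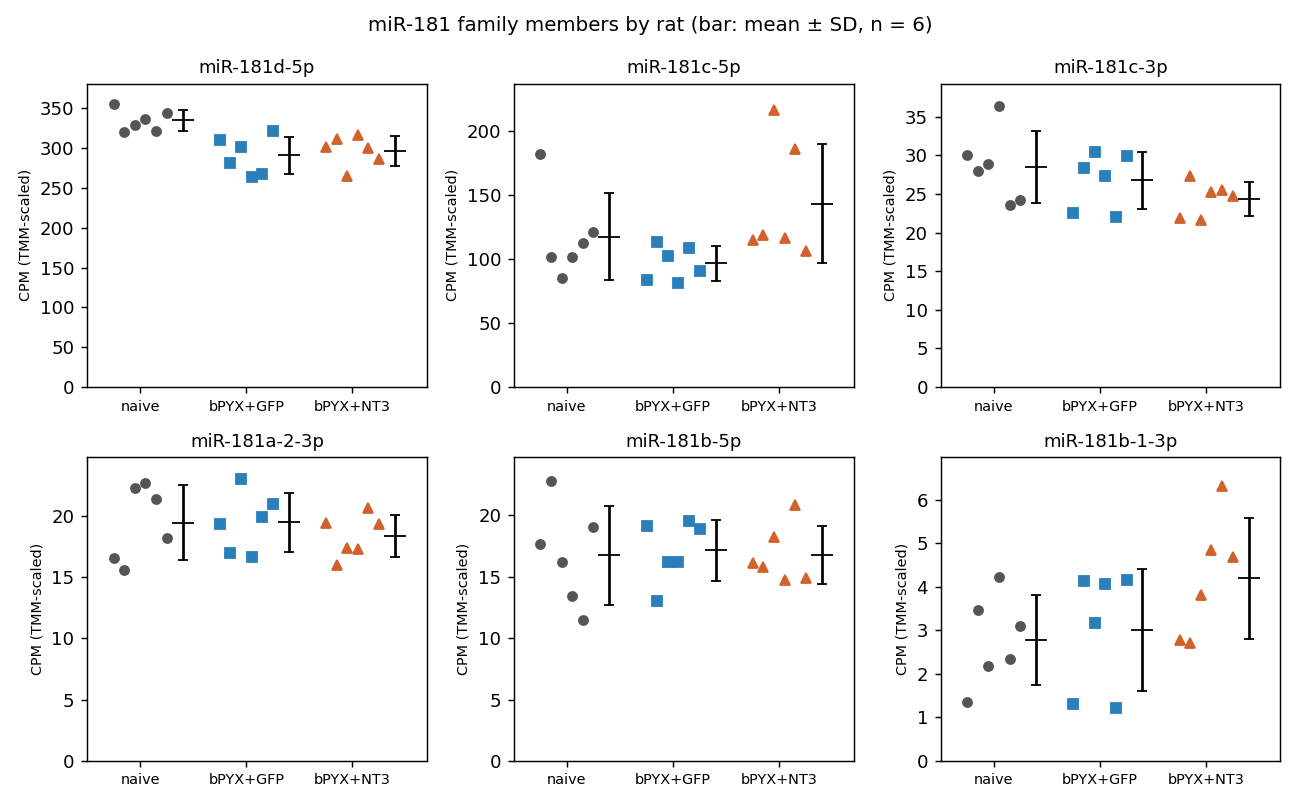
Levels of the 6 tested members in CPM (counts per M, TMM-scaled, linear axes from 0) by group, 1 point per rat, with the mean and SD of 6 rats as a bar. On this scale naive miR-181d-5p lies at 320 to 355 CPM, above all 6 bPYX+NT3 rats, and miR-181c-5p has 1 high naive rat and 2 high bPYX+NT3 rats.

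The 2 arms of a hairpin had unequal counts. Within each library the counts of miR-181c-5p were 4.61 ± 1.79 times those of miR-181c-3p (SD, n = 18), and above them in 18 of 18 libraries. miR-181b-5p, which the b-1 and b-2 hairpins share, was 6.38 ± 4.03 times miR-181b-1-3p, also above it in 18 of 18. For the a-2 hairpin, whose 5p arm is shared with a-1, miR-181a-5p was 0.0583 ± 0.0333 times miR-181a-2-3p, and above it in 0 of 18. miR-181a-1-3p had no counts, and since an entry at 0 is not evidence of absence here, it was not ordered against miR-181a-5p.

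The mature miR-181a-5p and miR-181b-5p are each encoded in 2 genes of GRCr8, on chromosomes 3 and 13, while the other 7 matched members are each in 1. A read that fits several places equally well may get a low alignment quality and be left out of the counts, so the miR-181a-5p and miR-181b-5p values are uncertain. Over the whole table, 18 of the 40 miRNAs in 2 or more genes (45.0%) passed the filter, all of them among the 33 in exactly 2 genes, against 332 of 648 in 1 gene (51.2%). The median of the mean counts was 2.50 with 2 or more genes, 36.6 with exactly 2 and 12.4 with 1. The highest mean count of a miRNA in 2 or more genes was 38200. Others were near 0, such as miR-24-3p at 0.333 beside 12683 for its opposite arm miR-24-2-5p, so such miRNAs differed widely here. Where only the 5p arm was in 2 or more genes, it was below its 3p arm in 7 of 20 pairs. With only the 3p arm in 2 or more genes, the 5p arm was the lower in 6 of 9 pairs. With both arms in 1 gene it was the lower in 75 of 160 pairs. The part of the copy number in the low miR-181a-5p count was not tested.

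Setting bPYX+GFP against naive rats asks what changed in the ganglia after injury with a control vector. The most abundant member, miR-181d-5p, was 0.869-fold its naive level after injury, and no other member passed the lenient criterion taken over from the original work, an unadjusted p under 0.05. miR-181d-5p had a lowest, median and highest level of 320, 333 and 355 CPM in naive rats. In bPYX+GFP rats these were 263, 291 and 321 CPM. All 6 bPYX+GFP rats were below the naive mean and 5 of them below the lowest naive rat, so the groups overlapped in 1 rat. The log2 fold change was -0.20 ± 0.07 (SE), with an adjusted p of 0.122 (edgeR quasi-likelihood F test, Benjamini-Hochberg over 373 miRNAs).

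Its neighbour miR-181c-5p had 85.4, 107 and 182 CPM as lowest, median and highest in naive and 80.9, 96.6 and 113 CPM in bPYX+GFP rats. The groups overlapped from 85.4 to 113 CPM, although all 6 bPYX+GFP rats were below the naive mean, which naive replicate 1 raised. The log2 fold change was -0.28 ± 0.16, with an adjusted p of 0.314 in edgeR. Without naive replicate 1 it was -0.11, with an adjusted p of 0.619 in edgeR. Without naive replicate 3, the naive rat of the lowest level, it was -0.36 and passed the unadjusted criterion, with an adjusted p of 0.238 in edgeR.

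The other 4 members tested lay between -0.09 and 0.10 on the log2 scale in this comparison, each with an adjusted p of 0.752 or more in edgeR. The count of members that passed the unadjusted criterion was 1 of 6, lower, where 21.2% of all 373 miRNAs tested passed it in either direction. Under the adjusted criterion it was 0 of 6, against 2.41% of all, and 0 of 6 also with the DESeq2 Wald test and the edgeR likelihood ratio test, which called 22 and 12 of the 373 miRNAs. No member had groups without overlap, where 4.02% of all did. The median log2 fold change of the 6 members was -0.04, that of all 373 miRNAs 0.00.

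The contrast between the vectors, bPYX+NT3 against bPYX+GFP, asks what the neurotrophin-3 vector changed in injured rats. miR-181c-5p was 1.49-fold higher with NT3, and its 5p neighbour miR-181d-5p was at a like level in both groups. The lowest, median and highest miR-181c-5p levels in bPYX+NT3 rats were 106, 117 and 216 CPM, against 80.9, 96.6 and 113 CPM in bPYX+GFP rats. All 6 bPYX+NT3 rats were above the bPYX+GFP mean and 5 were above its highest rat, but replicates 3 and 5, at 216 and 186 CPM, stood far above the other 4, which lay at 106 to 119 CPM. The log2 fold change was 0.58 ± 0.19, with an adjusted p of 0.217 in edgeR. It ranked 8 of 373 by size and 14 by p. Without replicate 3 it was 0.39 and without replicate 5 it was 0.49, both still with an unadjusted p under 0.05 (adjusted p of 0.485 and 0.484 in edgeR).

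miR-181d-5p had 264, 300.4 and 316 CPM as lowest, median and highest with NT3, within the range of the bPYX+GFP rats, and a log2 fold change of 0.04 ± 0.08 with an adjusted p of 0.879 in edgeR. The passenger miR-181c-3p, cut from the same hairpin as miR-181c-5p, had a log2 fold change of the opposite sign, -0.12 ± 0.11, with an adjusted p of 0.737. The low-count miR-181b-1-3p had 0.51 ± 0.32, with an adjusted p of 0.668 in edgeR. miR-181a-2-3p and miR-181b-5p were at -0.08 and -0.02.

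Of the 6 members, 1 (higher) passed the unadjusted criterion in this comparison, where 8.58% of all miRNAs tested did. By the adjusted criterion 0 of 6 members and 0% of all miRNAs passed in edgeR, as in DESeq2 and the edgeR likelihood ratio test, beside 32 miRNAs of unadjusted p under 0.05. Groups without overlap were found for no member and for 0% of all miRNAs. The median log2 fold change was 0.01 over the members and -0.00 over all.

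**Figure D2:**
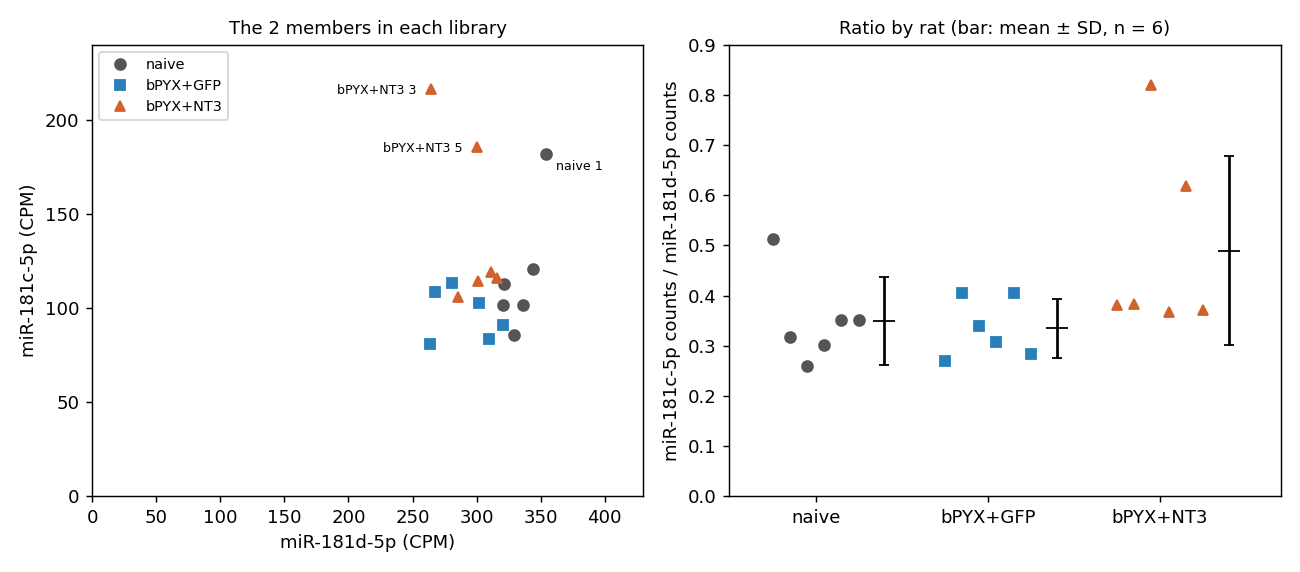
Left, miR-181c-5p against miR-181d-5p in CPM, 1 point per library, linear axes from 0. Right, the ratio of their counts within each library by group, with the mean and SD of 6 rats as a bar. bPYX+NT3 replicates 3 and 5 and naive replicate 1 have ratios of 0.819, 0.619 and 0.513, and the other 15 libraries lie at 0.259 to 0.405.

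miR-181c-5p and miR-181d-5p come from neighbouring hairpins, and their levels did not follow each other over the libraries. Within a library miR-181c-5p had 0.349 ± 0.0873 times the counts of miR-181d-5p in naive rats, 0.335 ± 0.0592 times in bPYX+GFP rats and 0.490 ± 0.189 times in bPYX+NT3 rats (SD, n = 6). The medians were 0.334, 0.324 and 0.381. With NT3, replicates 3 and 5 had high ratios, 0.819 and 0.619, and the other 4 rats had 0.367 to 0.382. Over the 18 libraries the log2 levels of miR-181c-5p and miR-181d-5p had a Pearson r of -0.03 and a Spearman rho of 0.01, and those of miR-181c-5p and miR-181c-3p -0.23 and -0.29. For miR-181c-3p and miR-181d-5p they were 0.45 and 0.45, and r was 0.35 after centring on the group means. These describe 18 libraries that each pair of values shares, with its depth. The ratio of miR-181c-5p to miR-181c-3p was 10.0 and 7.29 in bPYX+NT3 replicates 3 and 5 and 4.29 to 5.22 in the other 4.

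Setting bPYX+NT3 against naive rats asks how far the treated ganglia were from those of unoperated rats. It shares the naive libraries with the first comparison and the bPYX+NT3 libraries with the second, so its values are not separate evidence. miR-181d-5p was lower than in naive rats here too, and miR-181b-1-3p was higher. miR-181d-5p had 320, 333 and 355 CPM as lowest, median and highest in naive rats and 264, 300.4 and 316 CPM with NT3. Every bPYX+NT3 rat lay below every naive rat on this TMM scale. Per M without TMM scaling the groups overlapped, with bPYX+NT3 rats up to 326 and naive rats from 307. The log2 fold change was -0.17 ± 0.07, with an adjusted p of 0.319 in edgeR, and with library size only it was -0.11 and failed the unadjusted criterion, with an adjusted p of 0.484.

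miR-181b-1-3p, a passenger arm with 6 to 33 counts per library, had 1.34, 2.72 and 4.21 CPM as lowest, median and highest in naive rats. With NT3 these were 2.71, 4.25 and 6.32 CPM. The groups overlapped, with 3 of 6 bPYX+NT3 rats above the highest naive rat. The log2 fold change was 0.60 ± 0.28, with an adjusted p of 0.349 in edgeR. It passed the unadjusted criterion in 8 of 19 settings, and not with the DESeq2 Wald test, no filter or all groups in 1 fit.

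miR-181c-3p had 23.6, 28.4 and 36.3 CPM in naive and 21.6, 24.9 and 27.3 CPM in bPYX+NT3 rats as lowest, median and highest. All 6 bPYX+NT3 rats were below the naive mean, with a log2 fold change of -0.23 ± 0.12 and an adjusted p of 0.368 in edgeR. Without naive replicate 4, the highest naive rat, it was -0.14 with an adjusted p of 0.589 in edgeR. miR-181c-5p, the other arm, was at 0.29 ± 0.21 with an adjusted p of 0.552, at 0.13 without bPYX+NT3 replicate 3 and at 0.20 without replicate 5, with adjusted p of 0.860 and 0.726 in edgeR.

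Single libraries bore on these values, naive replicate 1 on 3 of them. Without it the log2 fold change of miR-181c-5p was 0.45 and passed the unadjusted criterion, with an adjusted p of 0.335 in edgeR. miR-181d-5p at -0.16 and miR-181b-1-3p at 0.46 no longer passed it, with adjusted p of 0.357 and 0.435. miR-181d-5p also failed it without naive replicate 6 or bPYX+NT3 replicate 1 or 3, and miR-181b-1-3p without naive replicate 3, 5 or 6 or bPYX+NT3 replicate 3, 4, 5 or 6, with their directions kept.

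Of the 6 members, 2 passed the unadjusted criterion against naive, 1 higher and 1 lower, where 13.7% of all miRNAs tested did. With the DESeq2 Wald test only miR-181d-5p passed it, and with the edgeR likelihood ratio test only miR-181b-1-3p. None passed after adjustment in edgeR, where 0% of all 373 did, and none of the members did so with DESeq2 or the edgeR likelihood ratio test, each of which called 1 miRNA outside the family. The 1 member whose groups did not overlap after TMM scaling was miR-181d-5p, where 1.34% of all miRNAs tested had such groups. The median log2 fold change was -0.04 over the members and -0.01 over all.

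**Figure D3:**
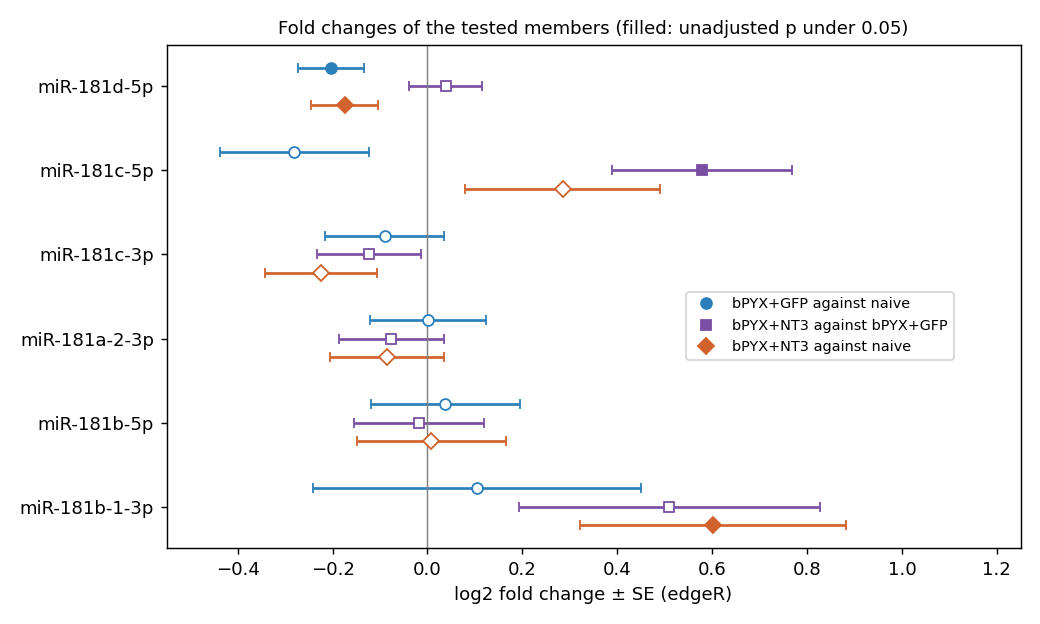
Log2 fold change with its SE (edgeR) of the 6 tested members in the 3 comparisons, with filled points for an unadjusted p under 0.05. miR-181d-5p lies at -0.20 and -0.17 in both comparisons with naive rats, and miR-181c-5p at 0.58 between the vectors.

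The miRNAs whose levels were most like those of miR-181c-5p over the 18 libraries were miR-22-3p, with a Pearson r of 0.91 and a Spearman rho of 0.82, miR-193a-3p, with 0.84 and 0.75, and miR-137-3p, a miRNA of neurons, with 0.82 and 0.74. After centring on the group means r was 0.87, 0.82 and 0.88. The likeness came with the same rats. In bPYX+NT3 replicates 3 and 5, miR-22-3p was at 45659 and 39412 CPM and at 25828 to 29002 CPM in the other 4. miR-193a-3p was at 25.0 and 18.0 CPM in these rats against 3.00 to 5.17 CPM, and miR-137-3p at 591 and 488 CPM against 309 to 363 CPM. All 4 miRNAs were thus high in the same 2 libraries. In naive replicate 1 miR-22-3p was at 33281 CPM, the highest of the naive rats, and miR-137-3p at 367 CPM, the highest as well, but miR-193a-3p at 4.03 CPM was within the naive range.

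Of the marker lists, only that of Schwann and satellite glia had both of these libraries outside the range of the other 4 bPYX+NT3 rats. The summed level of the Schwann and satellite glia list was 5316 and 6031 CPM in bPYX+NT3 replicates 3 and 5, against 7262 to 10565 CPM in the other 4, and all of it was from miR-204-5p and the scarce miR-219a-5p, since miR-338-3p was at 0. In naive replicate 1 it was 6924 CPM, the lowest naive value. The endothelial list was 19521 and 22405 CPM in bPYX+NT3 replicates 3 and 5, against 20569 to 28526 CPM in the other 4, and 21026 CPM in naive replicate 1, again the lowest naive value. The sensory neuron list was 25916 and 31020 CPM in bPYX+NT3 replicates 3 and 5, against 28999 to 32954 CPM in the other 4. The neuron list (miR-124-3p, miR-9a-5p, miR-128-3p and miR-137-3p) summed to 5689 and 7692 CPM in bPYX+NT3 replicates 3 and 5, against 7429 to 10020 CPM in the other 4. The blood and immune list was at 2058 and 1546 CPM, within the 1226 to 2180 CPM of the other 4. The part of these markers in the miR-181c-5p values was not tested, and in whole ganglia fewer cells of a type and less RNA per cell cannot be told apart.

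**Figure D4:**
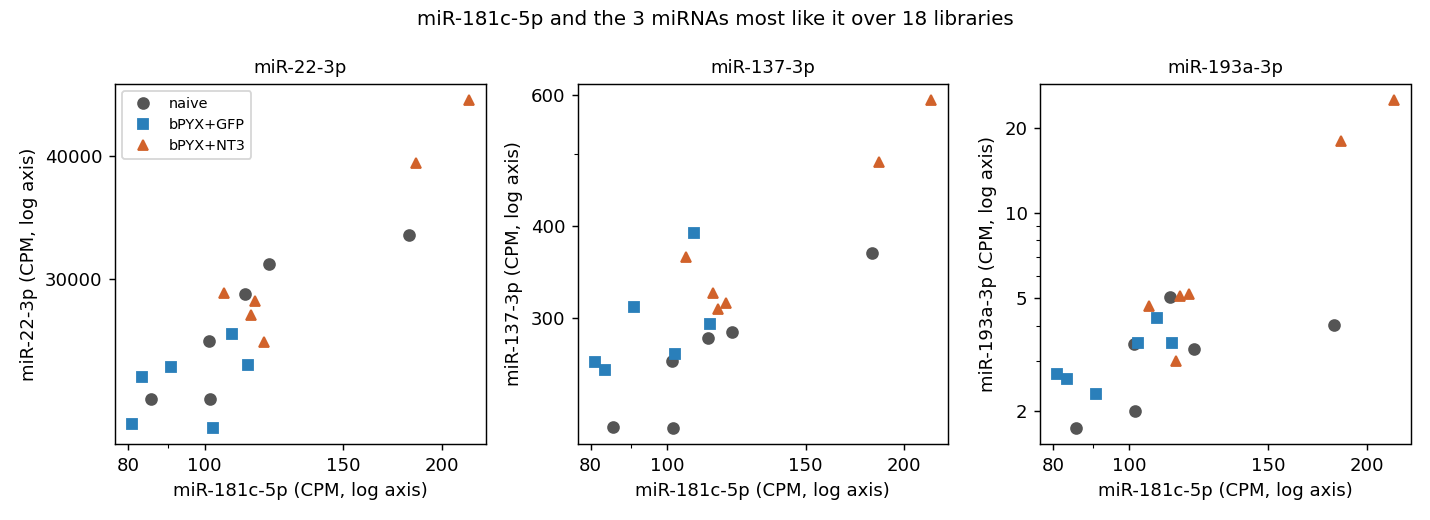
miR-181c-5p (horizontal, CPM) against the 3 miRNAs of highest Pearson r with it (vertical, CPM), 1 point per library, all axes logarithmic. The 2 bPYX+NT3 libraries at 216 and 186 CPM of miR-181c-5p are the highest in all 3 plots.

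For miR-181d-5p the most alike were miR-361-3p, with a Pearson r of 0.80 and a Spearman rho of 0.85, miR-193b-3p, with 0.75 and 0.70, and miR-676, with 0.74 and 0.72. After centring on the group means r was 0.53, 0.59 and 0.54, lower in each case, so part of the likeness lay between the groups. miR-361-3p was at 648 to 788 CPM in naive rats, at 499 to 626 CPM with the GFP vector and at 486 to 588 CPM with NT3. Both injured groups were below every naive rat for miR-361-3p, the pattern that miR-181d-5p had with NT3. For miR-193b-3p this held with GFP but not with NT3, and miR-676 overlapped the naive rats in both comparisons. Against naive rats the log2 fold change of miR-361-3p was -0.32 ± 0.07 with GFP, with an adjusted p of 0.0315 in edgeR, and -0.35 ± 0.07 with NT3, with an adjusted p of 0.0885.

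Blood and immune cells, in which the family is best known, were looked at through 7 marker miRNAs, all of them tested. Their summed level was 958 to 2812 CPM in naive rats, 1486 to 3087 CPM with the GFP vector and 1226 to 2180 CPM with NT3, overlapping in all 3 groups. None of the 7 passed an unadjusted p under 0.05 in any comparison in edgeR. The sensory neuron list had 2 members tested. By that criterion 1 was higher with GFP against naive rats, 1 with NT3 against naive rats and neither between the vectors. Of all 373 miRNAs tested, 21.2%, 13.7% and 8.58% passed it in these 3 comparisons, in either direction. The neuron list also had 2 members tested, of which 1, miR-137-3p, was higher by that criterion in bPYX+NT3 rats against both other groups. Its log2 fold change was 0.44 against bPYX+GFP and 0.56 against naive rats, with adjusted p of 0.448 and 0.191 in edgeR. In each comparison only 2 bPYX+NT3 rats, replicates 3 and 5, lay above the highest rat of the other group. The median of the 2 members was 0.17 in both comparisons, so the other member had the opposite sign, without passing the criterion. The summed level of this list did not go the same way, with medians of 9274 CPM in naive rats, 8491 CPM with the GFP vector and 7899 CPM with NT3. Of this sum miR-137-3p was a small part, with a mean of 322 CPM over the 18 libraries.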

How the data were processed

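For each rat the authors extracted RNA from the ganglia of 1 side, which was the treated side in bPYX rats. They made small RNA libraries with a NEBNext kit and sequenced single reads. Per the study's methods and processing notes, reads were demultiplexed with bcl2fastq 1.8.4, trimmed of adapters, aligned with Bowtie2 to Rnor_5.0 and counted with HTSeq, whose versions are not given in the sources used here. The deposited values are raw counts per mature miRNA, without normalization. The 5 totals of reads given to no miRNA, 1 of which held the 31.4% of reads at low alignment quality, entered neither library sizes nor tests. No molecular identifiers are stated, so PCR copies count as reads.

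Libraries were grouped by their labels, with 6 separate rats in each group, and taken by the column named in each label. A comparison used only its own 12 libraries, in edgeR 4.0.16 under R 4.3.3 (TMM scaling, quasi-likelihood F test, no covariate), over the 373 miRNAs with more than 10 counts in at least 6 of 18 libraries, with Benjamini-Hochberg adjustment. The SE came from the F statistic. The fits were tested on simulated data. CPM is given per M of TMM-scaled miRNA counts. Likeness was taken as Pearson r of log2 CPM (prior count 2) over 18 libraries, for members of at least 50 CPM on average, and the 3 highest were named. Mature sequences were matched by name to RefSeq (GRCr8) for 688 of 753 miRNAs and 9 of 10 members. The unadjusted criterion and the count limits of the filter follow the study, but the filter was run on all 18 libraries, naive replicate 1 included. The number of miRNAs tested differs from the study's, and the reason was not tested. Members, marker lists and tests were chosen with earlier results of these data known. Alternatives tried were median-of-ratios size factors, scaling to library size alone, no filter or one at 100 counts, the likelihood ratio test of edgeR, DESeq2 1.42.0 (Wald test), 1 fit of all groups, the replicate number as a block, each library left out in turn, CPM without TMM scaling, and Spearman in place of Pearson correlation.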

Additional observations from a re-analysis of the deposited data

Results flagged for a closer look

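In naive rats, miR-181c-5p stood apart in 1 library: naive replicate 1 had 182 CPM, and the next naive library 121 CPM. The ratio of miR-181c-5p to miR-181d-5p counts in the same library was 0.513, and the next naive ratio was 0.351. Both gaps passed Dixon's 95% limit for 6 values. Such a gap was looked for in 21 groups of 6 libraries, chance gives about 1 in 20, and both values rest on the same counts of 1 rat, which is the rat the study left out as an outlier.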

How the results depend on the processing

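No member reached an adjusted p under 0.05 in any setting. miR-181c-5p between the vectors had an unadjusted p under 0.05 in 20 of 20 settings (log2 fold change 0.39 to 0.66, adjusted p 0.120 to 0.485), and so had miR-181d-5p in bPYX+GFP against naive (-0.23 to -0.18, adjusted p 0.0721 to 0.249). The number of members with an unadjusted p under 0.05 was 1 to 2 in bPYX+GFP against naive when 1 library was left out, with 2 only without naive replicate 3, and 1 throughout between the vectors. In bPYX+NT3 against naive it was 2, and 0 to 2 when 1 library was left out, with 0 without naive replicate 6 and 0 without bPYX+NT3 replicate 3. It was 1 with library size only, the edgeR likelihood ratio test and the replicate block, where miR-181b-1-3p remained, and 1 with no filter, the DESeq2 Wald test and all 3 groups in 1 fit, where miR-181d-5p remained. With more than 100 counts it was 0 of the 3 members left in the fit. Over these settings miR-181d-5p had -0.19 to -0.11 (unadjusted p under 0.05 in 12 of 20, adjusted p 0.186 to 0.518) and miR-181b-1-3p 0.44 to 0.77 (8 of 19, adjusted p 0.254 to 0.596). The causes were not tested.

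Rats of the same replicate number in different groups deviated with an r of -0.380 to 0.367. At most 2 of 6 were most like their own number. Mean r by pair of groups was 0.027 to 0.071 for the same number and -0.014 to -0.002 for other numbers. No clear pairing by number was seen, but 6 rats per group are too few to exclude a weak one. By Spearman correlation 2 of the 3 miRNAs named for miR-181c-5p and 1 of the 3 for miR-181d-5p were the same. miR-181a-5p, miR-181b-2-3p and miR-181d-3p, with 0 to 10 counts, were below the filter and were not tested.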
